A study of Mus musculus with 32 samples.

Results

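The cytosolic ribosomal protein genes were examined in mouse gastrocnemius, a hind limb muscle, across 2 genotypes and 4 times of day. A gene was a member if its symbol was Rpl or Rps with a number and at most 1 further letter, or if it was Rplp0, Rplp1, Rplp2 or Rpsa. The rule found 80 members among 16634 genes with an expression value, 32 of the small subunit and 48 of the large subunit. Of these, 65 reached 1 FPKM (fragments scaled to transcript length and to the mapped total of the library) in at least 4 of 32 libraries and were tested, and 15 were not. The study asks whether SIRT1 in SF1 neurons, cells of the ventromedial hypothalamus, acts on the daily course of RNA in muscle. Mutant mice carried Sf1-Cre and were homozygous for floxed Sirt1 (Sf1-Cre; Sirt1loxP/loxP), and control mice were Sirt1loxP/loxP without Cre, which means that effects of Sf1-Cre and of losing SIRT1 cannot be told apart. All mice had a mixed genetic background and were 10 weeks old. Muscle was taken at Zeitgeber times ZT0, ZT6, ZT12 and ZT18, counted in hours from lights on, from 4 mice of each genotype at each time. The cross aims the deletion at SF1 neurons, and no value here shows how complete it was.

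Each cytosolic ribosome joins a small subunit, which binds the mRNA and reads its codons, to a large subunit, which forms the peptide bond. Both are built from ribosomal RNA and one copy of nearly every ribosomal protein, so cells make these proteins in matched amounts, in part by translating their mRNAs together through a pyrimidine tract at the 5′ end (the TOP motif) that responds to the kinase mTORC1. Mammalian genomes hold very many processed copies of ribosomal protein mRNAs, and a few members have a paralog with its own tissue pattern, such as Rpl3l in striated muscle.

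The libraries had the markers of muscle: Ckm, the muscle creatine kinase, lay between 15672 and 22140 FPKM. Acta1, the skeletal actin, was listed at exactly 0 in 12 libraries and the calcium pump gene Atp2a1 in 17, so an exact 0 in these values is not taken as absence of RNA. The summed level of 16 lymphocyte markers ranged from 5.55 to 162 FPKM in control and from 5.39 to 149 FPKM in mutant libraries, and that of 10 adipocyte markers from 1602 to 2929 and from 1628 to 4386 FPKM. Car3 (median 1170 FPKM) and Fabp4 (median 652) weigh most in the adipocyte sum. Over the 32 libraries Adipoq ran from 7.11 to 85.8 and Plin1 from 3.11 to 63.2 FPKM, a spread that the sum does not show. A few libraries stood apart over the members. Among all 32, mutant ZT0 library 2 was the highest for 9 tested members and the lowest for 13, and control ZT12 library 2 was the lowest for 13. Mutant ZT12 library 0 was the highest for 9, mutant ZT12 library 1 was the highest for 8, and mutant ZT18 library 0 was the lowest for 12. The same counts over all genes are not given, so this is not shown to be particular to the members. Array weights, low where a library departs from its group, were lowest in mutant ZT0 library 2 (0.173), mutant ZT18 library 0 (0.346) and mutant ZT12 library 1 (0.372). They were 0.716 in mutant ZT12 library 0 and 1.65 in control ZT12 library 2. FPKM values keep no read counts, so the absolute depth is unknown. In whole muscle, fewer cells of a type and less RNA per cell cannot be told apart.

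Many members have near-perfect copies elsewhere in the genome, and 3 examples show what a read would have to tell apart. The first 60 coding bases of each gene are given 5′ to 3′ from GENCODE M21 transcripts (GRCm38), with capitals where a base differs from the first gene of its set. In the first set, Rps27rt, annotated as protein coding, had 0 different bases and the paralog Rps27l had 18:
Rps27 (chr3:90212522-90213651, minus strand): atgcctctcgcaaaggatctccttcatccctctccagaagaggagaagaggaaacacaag
Rps27rt (chr9:114982366-114982739, minus strand): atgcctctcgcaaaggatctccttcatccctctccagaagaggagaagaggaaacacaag
Rps27l (chr9:66946086-66949516, plus strand): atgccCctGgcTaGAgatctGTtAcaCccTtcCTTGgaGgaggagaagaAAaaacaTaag
In the second set, the processed pseudogene Gm5850 had 0 different bases and the muscle paralog Rpl3l had 13:
Rpl3 (chr15:80077791-80091868, minus strand): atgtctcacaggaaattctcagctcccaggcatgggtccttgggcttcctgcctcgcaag
Gm5850 (chr3:92227469-92228674, minus strand): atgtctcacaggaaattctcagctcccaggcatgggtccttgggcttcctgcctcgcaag
Rpl3l (chr17:24727820-24736143, plus strand): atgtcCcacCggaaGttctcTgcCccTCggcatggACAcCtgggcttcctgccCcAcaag
In the third set, the processed pseudogene Rpl14-ps1 had 0 different bases and has an expression value of its own:
Rpl14 (chr9:120571444-120574654, plus strand): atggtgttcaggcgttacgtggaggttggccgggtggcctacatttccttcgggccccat
Rpl14-ps1 (chr7:45324965-45325617, plus strand): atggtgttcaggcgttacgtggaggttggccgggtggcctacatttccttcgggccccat

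The listed level of the members spanned a 14482-fold range, although their proteins are needed in matched amounts. The median member had a mean of 20.2 FPKM. Means were at 100 FPKM or more in 21 members, from 10 to 100 in 22, from 1 to 10 in 19 and under 1 in 18, and 56 members were at 1 FPKM or more in all 32 libraries. The highest was Rplp1, an acidic protein of the large subunit stalk, at 866 ± 220 FPKM (SD, n = 32 here and for the levels that follow). Rps15 at 530 ± 47.4, Rpl32 at 458 ± 58.9 and Rpl3l at 450 ± 43.4 FPKM were also among the highest. Rps15 occupies an interval of 672334 bases, one of 5 members whose interval exceeds 50000 bases (with Rpl38, Rps4l, Rpl31 and Rpl5). The values of all 5 may include other transcripts. The other stalk proteins were lower than Rplp1, with Rplp0 at 105 ± 30.7 and Rplp2 at 115 ± 30.0 FPKM. Rpsa, the laminin receptor protein of the small subunit, was at 47.6 ± 5.64 FPKM. Rps6, the small subunit protein that S6 kinase phosphorylates, was listed at only 2.21 ± 0.689 FPKM.

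Apart from Rpl39l, a paralog known from testis, the low end held genes that are no less part of the ribosome. Among members without an exact 0, the lowest were Rps27a, made as a fusion with ubiquitin, at 1.16 ± 0.407 FPKM, Rps27 at 0.847 ± 0.359, Rpl10 at 0.631 ± 0.261, Rpl27 at 0.579 ± 0.294 and Rpl9 at 0.523 ± 0.252 FPKM. A further 14 members were listed at exactly 0 in at least 1 library, and their highest single value was 2.39 FPKM. These were Rpl17 (0 in 14 libraries), Rpl36a (10), Rpl23a (7), Rpl11, Rpl24, Rps13 and Rps23 (6 each), Rpl39l (5), Rpl28 (4), Rps16 and Rps29 (2 each), and Rpl10a, Rpl12 and Rps12 (1 each). Rpl24 had the lowest mean of all, 0.0598 FPKM, with libraries from 0 to 0.176. No member with a mean above 10 FPKM had an exact 0.

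**Figure D1:**
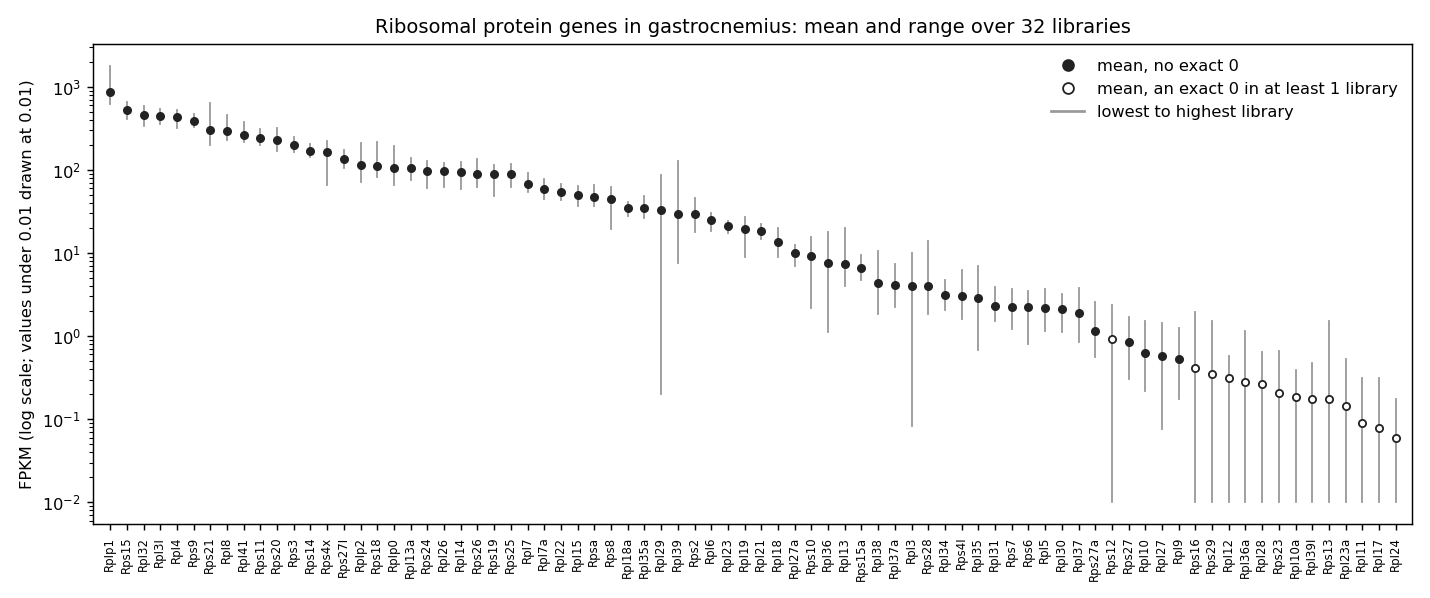
Mean FPKM (points, log scale) and lowest to highest library (bars) of 78 ribosomal protein genes over 32 libraries, in order of mean; open points mark the 14 members with an exact 0. Levels run from 866 FPKM for Rplp1 to 0.0598 FPKM for Rpl24, and the 14 open points sit at the low end.

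Levels were lower in members whose coding sequence has exact copies in other genes. For each member, the share of 100-base windows of its coding sequence (the read length) that occur unchanged in a gene at another locus was computed. Across 78 members with a value, this share and the mean FPKM had a Spearman correlation of -0.77, given as a description, since genes share libraries and annotation. It was -0.70 with 50-base windows (79 members), and -0.62 and -0.46 with 100- and 50-base windows of the whole transcript (79 members each). Of the 18 members under 1 FPKM, 15 had every coding window copied, with a median of 100% of windows. Of the 20 at 100 FPKM or more with a value, 0 had every window copied and 6 had none, with a median of 10.8% and a highest share of 82.6% (Rps20). Members from 1 to 10 FPKM had a median of 90.6% and those from 10 to 100 FPKM 68.6%.

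Read from the side of the copies, the 24 members with every coding window copied had means from 0.0598 to 49.6 FPKM, with a median of 0.605 FPKM. Rpl15 had the highest mean among them. The 8 members with no coding window copied, among them Rpl32, Rpl3l, Rps21 and Rps27l, had a median of 252 FPKM, and Rpl39l at 0.176 FPKM was the only one of the 8 under 1 FPKM. Of the 14 members with an exact 0, 12 had every coding window copied. The sources used here do not say whether reads that match several genes were dropped, split or assigned, and the part of the copies in these levels was not tested.

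**Figure D2:**
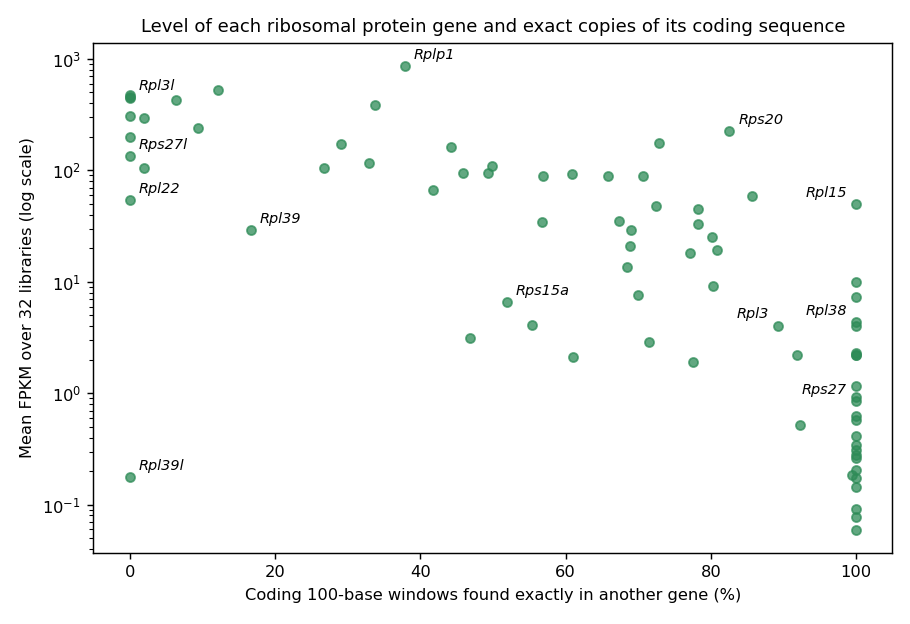
Mean FPKM over 32 libraries (log scale) against the percentage of coding 100-base windows found exactly in another gene, 1 point per member (78 members). Members with few copied windows, such as Rpl3l and Rps27l, sit high except Rpl39l, and 15 of the 18 members under 1 FPKM sit at 100%.

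Some copies carried values of their own. In all, 463 genes at other loci shared a 100-base window with a member, and 9 of them had an entry in the table that names no member. Rpl14-ps1, whose start is printed above, was listed at 409 ± 51.2 FPKM, 4.38 times the 93.4 ± 14.7 FPKM of Rpl14 itself. An entry for Rplp2-ps1 and Wdr89 was at 363 ± 48.9 FPKM, above Rplp2 at 115. An entry that joins Rpl37rt with Acads, a mitochondrial enzyme of short fatty acids, was at 317 ± 35.5 FPKM, while Rpl37 was listed at 1.91 ± 0.729. Rps15a-ps6 was at 8.56 ± 3.04 FPKM against 6.59 ± 1.03 for Rps15a, and BC004004 at 31.0 ± 3.21 against 18.1 for Rpl21. The other 4 were below their member, namely Rps19-ps3 at 5.61 FPKM against 88.6 for Rps19, Gm6654 at 0.554, Rps15a-ps4 at 0.111 and Gm10653 at 0.0803.

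In 2 of the paralog pairs the paralog was listed far above its sister gene. Rpl3l, the large subunit protein of striated muscle, lay between 358 and 539 FPKM, and Rpl3 between 0.0830 and 9.94 FPKM, so that their ranges did not overlap. Rps27l lay between 105 and 173 FPKM and Rps27 between 0.303 and 1.70. Of the coding windows, 89.3% in Rpl3 and 100% in Rps27 occur elsewhere, and none do in Rpl3l and Rps27l. Rpl39l, known from testis, was at most 0.471 FPKM and Rpl39 between 7.47 and 129. Rpl22l1 was at 59.0 ± 11.8 FPKM, close to Rpl22 at 54.1 ± 6.18. Rpl10l has no entry.

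The balance within the pairs did not differ between genotypes after adjustment over the 4 pairs. The log2 ratio of Rpl3l to Rpl3, computed on FPKM + 1, averaged 6.51 ± 0.752 over 16 control libraries and 6.96 ± 1.19 over 16 mutant libraries (SD), a difference of 0.45 (permutation of genotype within time, 100000 draws, 2-sided, adjusted p = 0.288). For Rps27l to Rps27 the means were 6.32 ± 0.293 and 6.09 ± 0.311, a difference of -0.23 (permutation p = 0.0380, adjusted p = 0.152). Rpl3 and Rps27 are low, so the size of both differences depends on the pseudocount. With a pseudocount of 0.1 they were 0.93 and -0.45, and with 5 they were 0.14 and -0.09 (permutation adjusted p from 0.119 to 0.534). The differences were -0.12 for Rpl39l to Rpl39 (permutation adjusted p = 0.651) and -0.11 for Rpl22l1 to Rpl22 (permutation adjusted p = 0.288). Over time, the permutation p adjusted over the 4 pairs was 0.253 for the Rpl3l pair, 0.451 for the Rps27l pair, 0.0849 for the Rpl39l pair and 0.205 for the Rpl22l1 pair.

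Most members were steady between mice of a group, and a few were not. Among the 65 tested members, the mean within-group SD of log2(FPKM + 1) was smallest in Rps15a at 0.107, Rpl23 at 0.110 and Rpl27a at 0.117, and largest in Rpl29 at 1.52, Rpl36 at 0.817 and Rpl3 at 0.779. Rpl29 switched between over 20 FPKM and under 1 FPKM. In controls its libraries were at 0.419, 33.0, 31.7 and 28.5 FPKM at ZT0, followed by 0.415, 30.8, 0.864 and 31.2 at ZT6, by 69.3, 33.4, 60.6 and 32.5 at ZT12 and by 64.3, 27.1, 52.9 and 31.1 at ZT18. In mutants they were at 38.1, 32.2, 38.4 and 0.634 FPKM at ZT0, followed by 25.7, 29.0, 31.3 and 54.6 at ZT6, by 87.2, 41.2, 37.3 and 29.0 at ZT12 and by 21.5, 0.202, 0.267 and 63.2 at ZT18. Values under 1 FPKM occurred in both genotypes, and the groups overlapped.

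Within groups, members tended to move together from mouse to mouse. After group means were removed, the mean correlation over 2080 pairs of tested members was 0.23 across the 32 libraries, with 77.0% of pairs above 0, against 0.03 over all tested genes, a description in which pairs share libraries. The lists most like the members were nearer to them, with 0.19 among translation factors and other TOP mRNAs and 0.15 among ribosome biogenesis genes, and the differences between lists were not tested. It was 0.32 among members with under 50% of coding windows copied and 0.17 among those with 50% or more, a split chosen after the data were seen. Rps3 (r = 0.84), Rpsa (0.83) and Rps9 (0.82) were among the members that followed the members' median closely, and each is itself part of that median. Among other genes the most alike were Hint1, a nucleotide hydrolase (r = 0.83), Eef1b2, a subunit of the elongation factor complex that delivers aminoacyl-tRNA (0.81), Srp9, of the signal recognition particle (0.78), Nhp2, of the pseudouridylation complex (0.78), and Pfdn5, a prefoldin subunit (0.77). At the other end, Rpl3 (-0.05), Rps4l (-0.03) and Rpl29 (-0.00410) did not follow the median.

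The starts of the genes discussed next are shown with short pyrimidine strings and a second motif common in ribosomal protein promoters marked. Each line has 40 bases before the annotated start and 10 from it on (RefSeq, GRCm38.p6), with CTTTC or CTTCC within 10 bases of the start, and CCGGAAG, the core bound by ETS factors, in capitals:
Rps15a (chr7:118116138-118116187, minus strand): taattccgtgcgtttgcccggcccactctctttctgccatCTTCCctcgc
Rpl38 (chr11:114668540-114668589, plus strand): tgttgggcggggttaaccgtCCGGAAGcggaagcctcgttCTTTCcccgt
Rps2 (chr17:24720023-24720072, plus strand): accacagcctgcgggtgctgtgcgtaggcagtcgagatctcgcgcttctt
Rps21 (chr2:180257339-180257388, plus strand): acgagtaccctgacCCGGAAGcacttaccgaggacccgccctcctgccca
Rpl39 (chrX:37085213-37085262, minus strand): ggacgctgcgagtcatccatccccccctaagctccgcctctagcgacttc
Rpl3l (chr17:24727786-24727835, plus strand): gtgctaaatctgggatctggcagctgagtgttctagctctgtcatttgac
The table of promoters held 71 for 59 of the members. CTTTC or CTTCC lay within 10 bases of the start, on the strand of the gene, in 17 of the 71 (23.9%) and in 2144 of all 32851 promoters (6.53%). CCGGAAG, on either strand of 300 bases, was present in 26 (36.6%) and in 2910 (8.86%). On the other strand CCGGAAG reads CTTCCGG, which overlaps CTTCC. A match describes these letters and is not evidence of binding. A start without CTTTC or CTTCC can still hold a pyrimidine tract.

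Over the day in controls, 3 of the 65 tested members passed the 24 h test (limma adjusted p under 0.05), 4.62% against 5.55% of all genes tested, and all 3 peaked near the end of the night. Rps15a, a small subunit protein, had the clearest rhythm. Its control libraries were at 9.34, 8.44, 7.32 and 7.39 FPKM at ZT0, followed by 6.54, 5.99, 5.48 and 5.64 at ZT6, by 5.76, 5.24, 4.68 and 6.10 at ZT12 and by 6.93, 5.93, 7.21 and 7.17 at ZT18. Every ZT0 library lay above every other control library. The amplitude, from mean to peak on log2(FPKM + 1), was 0.27 with a peak at ZT22.7 (limma adjusted p = 0.000580), and the call held when any 1 of the 32 libraries was left out (adjusted p from 0.000427 to 0.00290).

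Rpl38, a large subunit protein whose loss alters the mouse axial skeleton, was at 5.69, 5.69, 6.54 and 3.97 FPKM at ZT0 in controls, followed by 3.53, 2.61, 3.64 and 2.82 at ZT6, by 1.87, 1.82, 2.36 and 3.06 at ZT12 and by 4.52, 2.66, 3.26 and 3.72 at ZT18. Rps2, of the small subunit, was at 39.9, 41.6, 35.1 and 29.2 FPKM at ZT0, followed by 32.5, 26.8, 27.7 and 19.4 at ZT6, by 24.3, 22.1, 18.0 and 22.2 at ZT12 and by 26.0, 22.9, 28.4 and 29.9 at ZT18. Both were highest by mean at ZT0 and lowest at ZT12, with overlap of single libraries between neighbouring times. The amplitude of Rpl38 was 0.49 with a peak at ZT23.5 (limma adjusted p = 0.0239) and that of Rps2 0.36 with a peak at ZT23.9 (adjusted p = 0.0389). Neither is as firm as Rps15a. Rpl38 was not called without control ZT0 library 0, 1 or 2 or control ZT12 library 0 or 1 (adjusted p from 0.0582 to 0.0746 in these), and Rps2 was called in 22 of the 32 fits that leave out a library. All 3 belong to the members with 50% or more of coding windows copied (51.9% for Rps15a, 100% for Rpl38 and 69.0% for Rps2), and the part of copies in these rhythms was not tested. The Rpl38 value, from an interval of 413362 bases, may also include other transcripts. At an unadjusted p under 0.05, 11 members were rhythmic (16.9% against 19.4% of all genes), and the median amplitude was 0.12 in members and 0.10 in all genes.

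In mutants, 1 of the 65 tested members passed the 24 h test (1.54% against 3.92% of all genes tested). The count was 0 without mutant ZT0 library 0 or 1 or mutant ZT12 library 1. At an unadjusted p under 0.05 there were 6 members (9.23% against 14.4% of all genes). The members with the next smallest p-values in mutants were Rps2 with an amplitude of 0.30 (limma adjusted p = 0.141) and Rpl26 with 0.18 (adjusted p = 0.222). For Rps15a the mutant means were 7.63 ± 0.601, 5.64 ± 0.404, 6.67 ± 0.428 and 6.46 ± 0.463 FPKM.

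No member's 24 h rhythm was shown to differ between genotypes. The test of the difference called 0 members (0% of all genes tested were called), and 8 had an unadjusted p under 0.05 (12.3% against 5.34% of all genes). Rps2, Rpl29 and Rps15a came first, each with a limma adjusted p of 0.880.

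**Figure D3:**
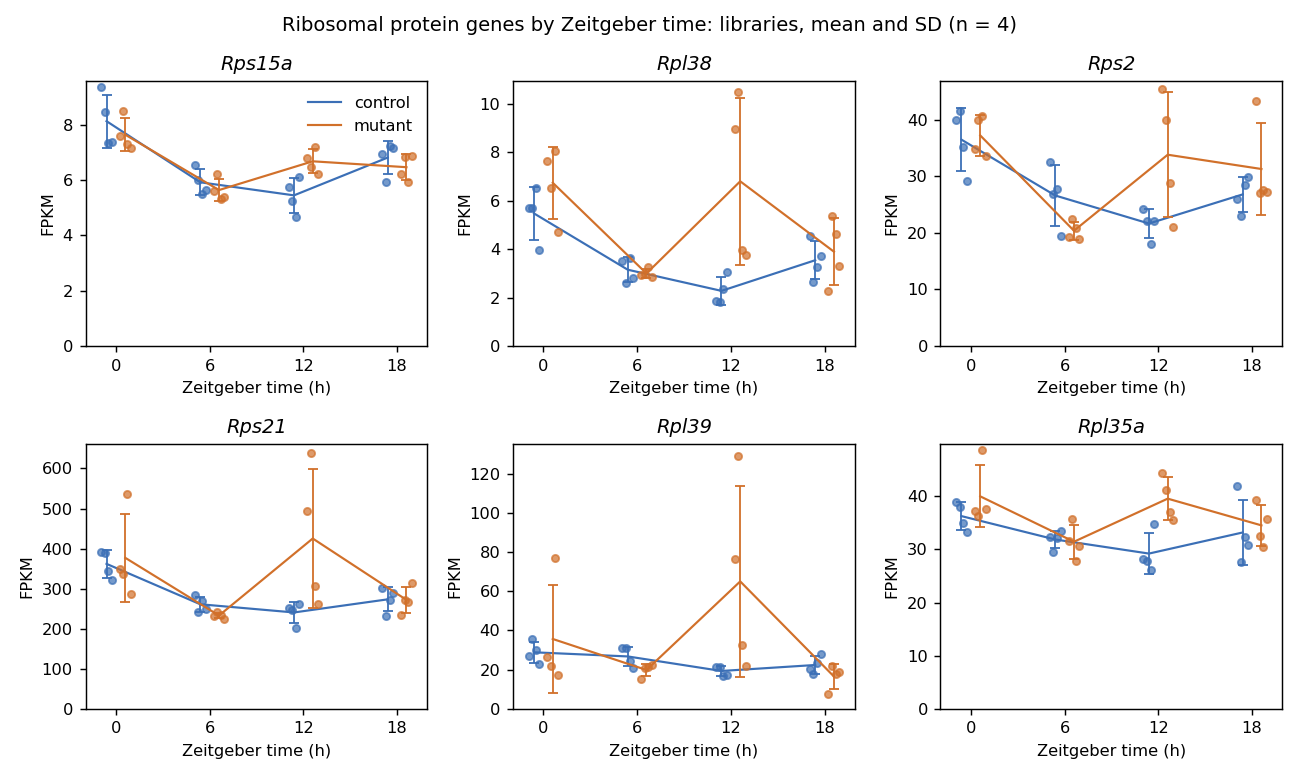
FPKM of 6 members by Zeitgeber time (h) in controls and mutants; points are libraries, lines join group means and bars are SD (n = 4). Rps15a is highest at ZT0 in controls, and 2 mutant ZT12 libraries stand above the other 2 of that group in Rpl38, Rps21 and Rpl39. In Rpl39, mutant ZT0 library 2 (76.9 FPKM) is as high as mutant ZT12 library 0 (76.7 FPKM).

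Between genotypes over all times, no member was called (0 of 65, against 0.0251% of all genes tested). At an unadjusted p under 0.05 there were 8 members, 12.3% against 6.48% of all genes. Of these, 6 were higher (9.23% against 3.32%) and 2 lower in mutants (3.08% against 3.16%). The first 3 were Rpl27a with a log2 difference of -0.16 (SE 0.0477), Rpl38 with 0.36 (SE 0.115) and Rpl15 with -0.17 (SE 0.0597), each with a limma adjusted p of 0.756. The median difference was -0.01 over members and 0.00231 over all genes. The members together reached 7348 ± 656 FPKM in control and 7482 ± 751 FPKM in mutant libraries (SD, n = 16), which is 1.47% ± 0.124 and 1.52% ± 0.136 of all FPKM. That total includes Acta1 and Atp2a1, so their exact zeros change the share between libraries.

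At ZT0 no member was called (0.0167% of all genes tested were), and 0 had an unadjusted p under 0.05, against 8.46% of all genes. Rpl31 (0.23), Rpl27a (-0.15) and Rps19 (-0.28) came first by p (limma adjusted p from 0.613 to 0.689). Without mutant ZT0 library 2 the differences of Rpl27a and Rps19 were -0.05 and -0.08, and without mutant ZT0 library 0 that of Rpl31 was 0.12. At ZT6 no member was called either (0.0167% of all genes). Here 51 of 65 members were lower in mutants (78.5% against 57.5% of all genes), but only Rpl15 had an unadjusted p under 0.05 (1.54% against 10.4%). Its mutant libraries lay between 37.1 and 50.8 FPKM and its control libraries between 46.1 and 63.0, a log2 difference of -0.36 (SE 0.119, limma adjusted p = 0.471). Rps2 (-0.35) and Rpl29 (2.26) followed (adjusted p of 0.482 and 0.484), and the Rpl29 value rests on the control libraries near 0 given above (1.48 without control ZT6 library 0 and 1.44 with a pseudocount of 5).

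At ZT12 the members with the smallest p-values were higher in mutants, and none passed the adjusted test (0 of 65, against 0.0251% of all genes tested). At an unadjusted p under 0.05, 21 members were higher (32.3% against 12.8% of all genes) and 1, Rpl5, was lower (1.54% against 4.57%). By sign alone 43 of 65 were higher (66.2% against 63.6%), with a median of 0.10 against 0.06 for all genes. With quantile normalisation 36 of 65 were higher (55.4% against 48.3% of all genes), 17 of them at an unadjusted p under 0.05 (26.2% against 7.83%). With median-ratio scaling 36 were higher (55.4%, against 5990 of the 11975 genes), 15 at that p (23.1% against 7.68%). Both subunits took part, with 9 of 28 small subunit and 12 of 37 large subunit members higher at that p. The members with under 50% of coding windows copied gave 8 of 24 and those with 50% or more 11 of 39. The other 2 tested members, Rps4l and Rpl41, have no value for this share and were both higher at that p.

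Rpl38 came closest. At ZT12 it was at 8.96, 10.5, 3.97 and 3.77 FPKM in mutants and at 1.87, 1.82, 2.36 and 3.06 FPKM in controls, with no overlap. The log2 difference was 1.15 (SE 0.230, limma adjusted p = 0.0549). Rps21, of the small subunit, was at 493, 640, 306 and 262 FPKM in mutants and at 252, 246, 202 and 263 in controls, a difference of 0.73 (SE 0.190, adjusted p = 0.101), and here the lowest mutant library fell below the highest control library. Rpl35a was at 44.5, 41.2, 37.0 and 35.6 FPKM in mutants and at 28.2, 27.8, 26.1 and 34.8 in controls, a difference of 0.43 (SE 0.114, adjusted p = 0.112). Rpl39, of the peptide exit tunnel, was at 76.7, 129, 32.4 and 21.9 FPKM in mutants and at 21.6, 21.6, 16.8 and 17.3 in controls, a difference of 1.39 (SE 0.399, adjusted p = 0.123). In Rpl38, Rps21 and Rpl39 the same 2 mutant libraries, 0 and 1, were far above the other 2.

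The ZT12 counts moved with single libraries. The members higher at an unadjusted p under 0.05 went from 21 to 13 without mutant ZT12 library 0 (20.0% against 7.96% of all genes) and also to 13 without control ZT12 library 2 (20.0% against 10.4%). Members passing the adjusted test went from 0 to 9 without mutant ZT12 library 3 (13.8% against 3.72% of all genes, 446 in number). They went to 4 without mutant ZT0 library 2 (6.15% against 2.19%, 262 genes), so that genes outside the list gained calls as well. Without mutant ZT0 library 2 and mutant ZT12 library 1 together, chosen after their values were seen, 0 passed and 19 were higher at an unadjusted p under 0.05 (29.2% against 9.47% of all genes). At the same time of day, 7 of 15 muscle fibre markers were lower in mutants at an unadjusted p under 0.05 (46.7% against 4.57% of all genes). None was higher at that p, but by sign alone the list was split, with 9 lower and 6 higher. Summed over the 13 muscle markers with no exact 0, which leaves out Acta1 and Atp2a1, the level was 85973, 63362, 123447 and 95378 FPKM in mutant ZT12 libraries 0 to 3 and between 94615 and 138601 FPKM in controls. The 2 mutant libraries that were high in Rpl38, Rps21 and Rpl39 had the lowest of these 13-marker sums among the 8 libraries at ZT12. The sum still holds genes of wide range, such as Tnnt3, from 569 to 33494 FPKM over the 32 libraries. Over all 15 markers mutant ZT12 libraries 0 to 3 were at 120713, 96392, 134447 and 95378 FPKM, so library 0 lay above library 3. The 15-marker sum is open to the exact zeros of Acta1 and Atp2a1. Lymphocyte marker sums at ZT12 lay between 12.5 and 149 FPKM in mutants and between 7.70 and 162 in controls. Adipocyte sums, in which Car3 and Fabp4 weigh most, lay between 2061 and 3280 and between 2175 and 2571. The part of these in the ZT12 values was not tested, except that with lymphocyte and adipocyte scores as covariates 20 members were higher at an unadjusted p under 0.05 (30.8% against 13.0% of all genes) and 0 passed.

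At ZT18 no member was called (0.0167% of all genes tested were). All 6 members at an unadjusted p under 0.05 were lower in mutants (9.23% against 1.93% of all genes lower): Rpl3 (-1.76, SE 0.605), Rpl15 (-0.32), Rpl37a (-0.50), Rpl27a (-0.22), Rplp0 (-0.55) and Rpl29 (-2.62), each with a limma adjusted p of 0.9995. Rpl3 was at 6.39, 0.166, 0.0830 and 0.289 FPKM in mutants and at 5.22, 6.77, 6.53 and 3.31 in controls, so that 3 of the 4 mutant libraries were near 0 and the other lay within the control range. Its difference ran from -3.18 with a pseudocount of 0.1 to -0.72 with 5. Rpl3 also fell to 0.318 FPKM in a control library at ZT12, 0.118 in a mutant library at ZT0 and 0.288 in one at ZT6. The test of whether the genotype difference depended on time called 0 members (0% of all genes tested) and had 11 at an unadjusted p under 0.05 (16.9% against 14.1%).

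**Figure D4:**
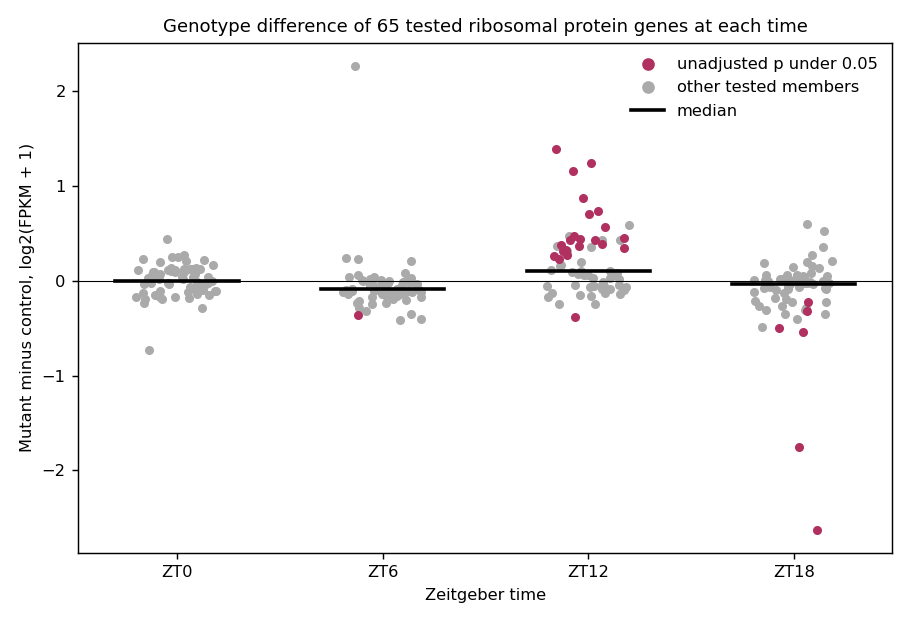
Mutant minus control difference on log2(FPKM + 1) of the 65 tested members at each Zeitgeber time; bars are medians and coloured points have an unadjusted p under 0.05. At ZT12 22 points are coloured, 21 of them above 0, and none at any time passed the adjusted test.

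With 4 times, the contrast left after the 24 h rhythm is a 12 h component, the mean of ZT0 and ZT12 minus the mean of ZT6 and ZT18. In mutants 55 of 65 members were positive on it (84.6% against 57.3% of all genes), with a median of 0.19 against 0.03. No member was called (0% of all genes tested were), and 25 had an unadjusted p under 0.05, all positive (38.5% against 14.3% positive among all genes). By sign 48 were positive with quantile normalisation (73.8% against 49.9% of all genes) and 50 with median-ratio scaling (76.9% against 47.7%). Rpl38 had 0.77 and Rps21 0.61 (limma adjusted p = 0.0870 for both), and Rpl39 had 1.13 (adjusted p = 0.0929). Rps21 shows the shape, with mutant means of 377 ± 110, 233 ± 6.82, 425 ± 175 and 272 ± 33.0 FPKM at ZT0, ZT6, ZT12 and ZT18. This contrast shares the ZT12 mutant libraries with the comparison above and is not independent of it. Without mutant ZT12 library 3 it called 17 members (26.2% against 7.11% of all genes, 852 in number) and without mutant ZT0 library 3 it called 13 (20.0% against 10.5%, 1258 genes).

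In controls the same contrast called 0 members (0.0668% of all genes tested), with 2 at an unadjusted p under 0.05, both negative (3.08% against 9.24% of all genes). Rplp0 had -0.40 (SE 0.166), Rpl15 -0.18 (SE 0.0844) and Rpl3l -0.13 (SE 0.0689), with limma adjusted p from 0.276 to 0.367. The difference of the contrast between genotypes, a test added after the data were seen, called 0 members (0% of all genes tested) and had 13 at an unadjusted p under 0.05, all higher in mutants (20.0% against 15.7% of all genes higher). Rplp0 (0.79, limma adjusted p = 0.0839), Rpl13 (0.82, adjusted p = 0.0984) and Rpl38 (0.69, adjusted p = 0.109) came first. It called 6 members without mutant ZT0 library 3 (9.23% against 9.15% of all genes) and 5 without mutant ZT12 library 3 (7.69% against 6.65%), shares near those of all genes. Per the labels, ZT0 and ZT12 samples carried one set of index sequences and ZT6 and ZT18 samples another, so an effect tied to the index set, or to a pool that follows it, and a 12 h component cannot be told apart.

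The summed level of the members was higher by mean at ZT0 and ZT12 than at ZT6 and ZT18 in mutants, while in controls ZT12 was the lowest. In mutants the means were 7982 ± 552, 6764 ± 402, 8013 ± 849 and 7168 ± 325 FPKM in the order of the times, and in controls 7760 ± 891, 7169 ± 410, 7103 ± 597 and 7359 ± 693 (SD, n = 4). At ZT12 mutant libraries ran from 6892 to 8954 FPKM and control libraries from 6303 to 7749, so the groups overlapped. Rplp1 weighs most in these sums, and its mutant libraries lay between 764 and 1193 FPKM at ZT12, against 629 to 865 in controls.

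**Figure D5:**
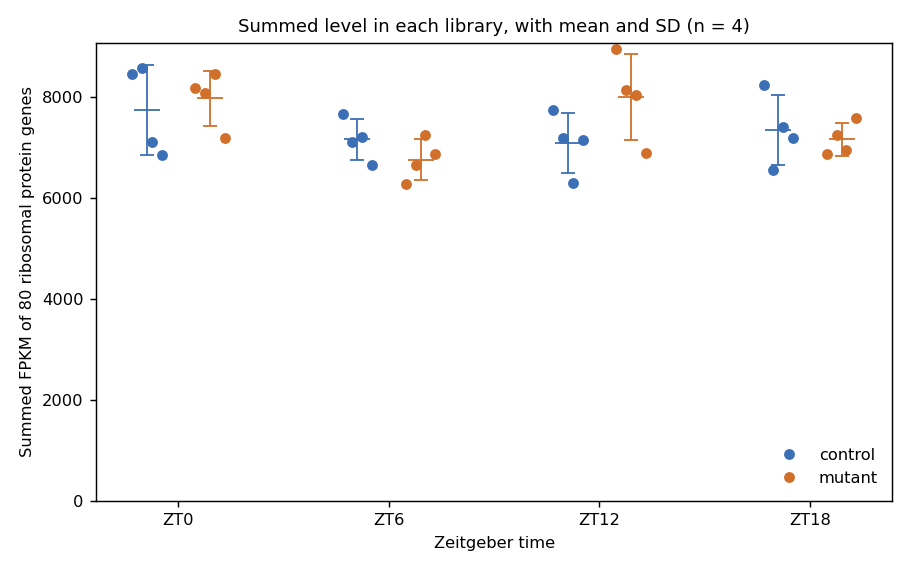
Summed FPKM of all 80 ribosomal protein genes in each library by Zeitgeber time and genotype, with mean and SD (n = 4). Mutant means alternate between 7982 and 8013 FPKM at ZT0 and ZT12 and 6764 and 7168 FPKM at ZT6 and ZT18, and libraries of the genotypes overlap at every time.

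Other genes of the translation machinery were read beside the members, by counts only. At an unadjusted p under 0.05, 12.8% of all genes tested were higher and 4.57% lower in mutants at ZT12, and 14.3% were positive and 7.24% negative on the 12 h component in mutants. Of 25 tested translation factors and other TOP mRNAs, 10 were higher and 1 lower at ZT12, and 12 were positive and 0 negative on the 12 h component, so that the shares higher and positive were above those of all genes. Of 60 ribosome biogenesis genes, whose products process ribosomal RNA and assemble the subunits, 7 were higher at ZT12 (11.7%, near the share of all genes) and 11 lower (18.3%), and 5 were positive (8.33%) and 14 negative (23.3%) on the 12 h component. Of 32 genes of mTORC1 signalling and TOP regulation, 5 were higher at ZT12 (15.6%, near the share of all genes) and 0 lower. None of the 3 lists had a gene that passed a genotype test. In the 24 h test in controls, 1 of 25, 2 of 60 and 1 of 32 genes of the 3 lists passed, each share below the 5.55% of all genes. Tpt1, a TOP mRNA, passed with an amplitude of 0.48 and a peak at ZT23.6 (limma adjusted p = 0.0141). The nucleolar methyltransferase gene Fbl (0.32, peak ZT19.2, adjusted p = 0.0229) and the assembly factor gene Wdr74 (0.19, peak ZT14.1, adjusted p = 0.0301) also passed. Ddit4, an inhibitor of mTORC1, passed in both genotypes, with an amplitude of 1.41 in controls (peak ZT16.5, limma adjusted p = 0.0136) and 1.49 in mutants (peak ZT17.2, adjusted p = 0.00894). It was the only gene of the 3 lists to pass in mutants, where 3.92% of all genes did. No gene of the 8 marker lists passed a genotype test. In the 24 h test in controls, 3 of 6 vessel genes (Kdr, Cldn5 and Pecam1) and 1 of 8 matrix genes (Dcn) passed. In mutants 1 of 6 vessel genes (Kdr) and 1 of 8 matrix genes (Fbn1) did.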

How the data were processed

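RNA was measured in 32 gastrocnemius libraries. Per the labels' protocols these were stranded mRNA libraries, combined in 4 pools of 8 and read for 100 cycles, single-end. The sources used here do not name the pool of each sample, the aligner, the quantifier or the annotation. The build was mm10, per the submitters' processing notes. The values are FPKM per gene, computed and deposited by the authors. Each column carries genotype, time and a number from 0 to 3 that names no mouse. A second deposited table, with the authors' rhythm statistics, was not used. The sources used here give no day of harvest, and p-values measure the spread between these samples.

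The 11975 genes with at least 1 FPKM in at least 4 libraries were tested on log2(FPKM + 1), a scale that understates the change of low genes. A model with 1 mean per group was fitted over all 32 libraries with limma 3.58.1 in R 4.3.3 (trended prior with 3.37 degrees of freedom, residual degrees of freedom 24). Contrasts were genotype over all times and at each time, genotype by time, the 24 h cosine and sine in each genotype and their difference, and the 12 h component. P-values are 2-sided and adjusted by Benjamini-Hochberg over all genes tested, with calls at an adjusted p under 0.05. Pair ratios were tested by permuting genotype within time, or libraries over times within genotype (100000 draws). The fit was tested on simulated data.

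Copies were sought with 100- and 50-base windows of GENCODE M21 transcripts (GRCm38), in which 79 members were matched, and promoters came from a RefSeq table (GRCm38.p6), using Python 3.11.15, pandas 2.3.3 and matplotlib 3.10.9. The members and the 11 gene lists (8 of cell type markers, 3 of translation genes) were chosen with earlier results of these data known. Named members are the 5 highest and 5 lowest without zeros, all with an exact 0, the 3 most and 3 least variable, those passing a comparison or else the 3 with the smallest p, the paralog pairs, Rps6, Rpsa and the stalk proteins. Alternatives were the pseudocount (0.1 and 5), the filter (none, or a mean of 5 FPKM), quantile normalisation, median-ratio scaling, exact zeros as missing values, array weights, only the groups compared, lymphocyte and adipocyte scores as covariates, and each library left out. Results of 2 members by name are not reported here. The 12 h difference, the split by copies, the muscle marker sum without zeros and the fit without 2 libraries were added after the data were seen.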

Additional observations from a re-analysis of the deposited data

Results flagged for a closer look

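In 11 of 104 groups of 4 libraries that were checked (a set chosen among named members), 1 library lay far from the other 3. Chance alone gives about 1 group in 20 and values of the same library are not independent. Mutant ZT18 library 0 accounts for 4 of the 11. In it Rps2 was at 43.4 FPKM (27.0 to 27.5 in the others), Rplp1 at 621 (843 to 882), Rpl3l at 516 (438 to 450) and Rpl3 at 6.39 (0.0830 to 0.289). Mutant ZT0 library 2 accounts for 2, with Rpl39 at 76.9 FPKM (17.4 to 26.3 in the others) and Rpl35a at 48.8 (36.4 to 37.6). Its sum over the muscle markers with no exact 0, 66978 FPKM, was the lowest of all libraries but mutant ZT12 library 1, at 63362.

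Rpl29 was low in control ZT0 library 0, at 0.419 FPKM (28.5 to 33.0 in the others), and in mutant ZT0 library 3, at 0.634 (32.2 to 38.4). Rpl3l was at 469 FPKM in mutant ZT6 library 2 (431 to 435) and Rpl15 at 38.2 in mutant ZT18 library 1 (45.6 to 46.2). The median log2(FPKM + 1) of members without zeros was 5.81 in control ZT12 library 0 (5.37 to 5.44 in the others).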

How the results depend on the processing

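Rps15a kept its 24 h call in controls under all 11 other settings (adjusted p from 3.65e-05 to 0.00590). Rpl38 lost it with a pseudocount of 5 (adjusted p = 0.0501), and Rps2 with no filter (0.0529) and with median-ratio scaling (0.0679). In controls the 24 h test called 10 members with array weights (15.4%, against 18.6% of all genes), 6 when only the groups compared were fitted (9.23% against 10.2%), and 5 without mutant ZT0 library 2 and mutant ZT12 library 1 (chosen after seeing the data, 7.69% against 9.19%), in place of 3. In mutants it called 0 when only the groups compared were fitted. At ZT12, array weights called 1 member, Rpl38 (adjusted p = 0.0455; 0.0835% of all genes were called). Leaving out 1 library at a time gave 0 to 9 calls at ZT12, 1 to 4 for the 24 h test in controls, 0 to 1 in mutants, 0 to 17 for the 12 h component in mutants and 0 to 6 for its difference. These are counts of members alone. In the main fit the shares of all genes called were 0.0251%, 5.55%, 3.92%, 0% and 0%, in the same order. Those shares also moved as libraries were left out, as given above for single fits. The lone call at ZT12 also arose without library 0 or 1 of mutant ZT18, library 2 of mutant ZT12 or library 3 of mutant ZT0. The genotype difference of the Rpl39l to Rpl39 ratio ran from -0.22 to 0.00400, the positive value without mutant ZT0 library 2. Its permutation p over time ran from 0.00450 to 0.0506, and that of the Rpl22l1 pair from 0.0181 to 0.186. Members higher at ZT12 at an unadjusted p under 0.05 numbered 13 to 26 with a library left out and 15 to 24 under the other settings. Members positive on the 12 h component in mutants at that p numbered 18 to 29 and 19 to 29. In the main fit these counts were 21 (32.3% against 12.8% of all genes) and 25 (38.5% against 14.3%). The ranges are of members alone, and the shares of all genes moved under the same changes. The other comparisons called 0 members under every setting run. Fitting only the groups compared is not another fit where a comparison uses all groups. The causes of these changes were not tested. Depth is unknown, so no counting error could be given. No paired analysis was possible because the columns carry only library numbers that name no mouse.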
